A study of Mus musculus with 36 samples.

Results

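The vacuolar proton pump and the machinery of autophagy were followed through the brains of mice that lack the lysosomal protease tripeptidyl peptidase 1. The group holds 37 genes, taken by gene symbol, with earlier results of these data known, out of 55450 annotated genes at 1 month. It is made of 17 V-ATPase genes (9 of the V1 sector, 6 of the V0 sector and 2 accessory proteins) and 20 autophagy genes (3 of the TFEB family, 4 of initiation, 6 of membrane supply and conjugation, 5 of the LC3 and GABARAP family and 2 cargo receptors). RNA-seq libraries had been made from forebrain/midbrain (F/M) and cerebellum (Cb) at 1, 2 and 3 months of age, with 3 Tpp1-/- and 3 control libraries per region and age, 36 in all. Tpp1-/- mice carry a gene-targeted disruption of Tpp1, which models the childhood disease CLN2, in a line kept by crossing heterozygotes. Controls were unaffected siblings of the same age. They were wild type, except that control replicate 3 at 1 month was Tpp1+/- in both regions. All RNA came from whole dissected tissue and was prepared as stranded mRNA libraries, so each value is an average over all cells of the region.

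V-ATPase uses ATP in its cytosolic V1 sector to drive protons through its membrane V0 sector, which acidifies lysosomes and, in neurons, synaptic vesicles. TFEB, TFE3 and MITF are transcription factors that switch on lysosomal and autophagy genes when they leave the lysosome surface for the nucleus, and they bind short DNA words built around an E-box. In autophagy, the ULK kinases and Beclin 1 start a membrane, ATG9A and the WIPI proteins supply it, the ATG5 and ATG7 enzymes attach LC3 and GABARAP proteins to it, and receptors such as SQSTM1 and optineurin (OPTN) bring the cargo. Neurons depend on this route because they do not divide and so cannot dilute waste.

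Promoters of the members were searched for the DNA words of the TFEB family, and 5 are printed here. RefSeq promoter entries (build GRCm38.p6, 250 bases before to 50 after each start) were found for 29 of the 37 members, in 37 entries. Atg16l1, Atp6v1b2, Atp6v1c1, Atp6v1g1, Atp6v1h, Becn1, Map1lc3a and Rb1cc1 had none. The words CACGTG and TCACGTGA were searched. Both read the same on either strand, and the second contains the first. CACGTG stood in 6 of the 37 entries (16.2%), against 7.15% of all 32851 promoter entries, and in 6 genes (Atg5, Atg7, Atp6v0b, Atp6v0d1, Atp6v0e and Atp6v1a). TCACGTGA stood in 3 of them (8.11%), against 0.974% of all entries. These 3 belong to the pump: the V1 catalytic subunit A gene Atp6v1a at chr16:44139248-44139409 (minus strand), the V0 subunit d1 gene Atp6v0d1 at chr8:105566053-105566214 (minus strand) and the V0 subunit e gene Atp6v0e at chr17:26676246-26676407 (plus strand). They are shown because they carry the word, and Gabarapl1 at chr6:129533042-129533203 (plus strand) and Optn at chr2:5064106-5064267 (minus strand) because the results turn on them and their entries hold neither word. Each runs from 150 bases before the start to 12 after it, with TCACGTGA in capitals.
Atp6v1a: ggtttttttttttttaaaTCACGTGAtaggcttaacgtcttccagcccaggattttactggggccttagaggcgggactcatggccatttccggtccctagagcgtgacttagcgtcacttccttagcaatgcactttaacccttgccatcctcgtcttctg
Atp6v0d1: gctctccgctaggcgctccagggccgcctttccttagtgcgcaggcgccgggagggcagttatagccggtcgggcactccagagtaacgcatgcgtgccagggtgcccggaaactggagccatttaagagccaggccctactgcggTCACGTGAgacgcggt
Atp6v0e: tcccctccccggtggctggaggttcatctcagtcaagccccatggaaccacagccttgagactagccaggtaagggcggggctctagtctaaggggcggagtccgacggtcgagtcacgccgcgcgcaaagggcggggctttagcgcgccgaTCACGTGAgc
Gabarapl1: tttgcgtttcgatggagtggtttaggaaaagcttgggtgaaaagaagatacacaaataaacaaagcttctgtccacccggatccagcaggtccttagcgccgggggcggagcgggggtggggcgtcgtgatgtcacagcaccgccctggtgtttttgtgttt
Optn: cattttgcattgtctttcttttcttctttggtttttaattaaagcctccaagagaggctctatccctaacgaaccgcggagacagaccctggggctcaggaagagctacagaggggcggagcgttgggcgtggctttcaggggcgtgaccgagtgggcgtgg
The word began 132 bases before the start in Atp6v1a and 4 bases before it in Atp6v0d1, and at base 3 of the transcript in Atp6v0e. A match is a run of letters and does not show that a factor binds there.

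Libraries held between 10609896 and 29942380 counted reads, with a median of 21049839. Tpp1 itself was checked first. In F/M its level in CPM, counts scaled to the TMM-adjusted library total, was 74.4, 69.7 and 46.6 in the 1 month controls, the last being the Tpp1+/- library, and 16.3, 18 and 16.2 in Tpp1-/-. Its log2 fold change was between -2.12 and -1.31 over the 6 comparisons, and in every one the groups did not overlap, so the genotype labels held. The sex labels did not. All 12 libraries of 1 month held 1652 to 3739 reads of the Y-linked Ddx3y and at most 8 of Xist, although 4 are labelled female, and all 12 of 3 months held 12199 to 36339 reads of Xist and at most 1 of Ddx3y, although 8 are labelled male. The libraries of any one age were alike in this, so comparisons within an age are not mixed, but age, counting run and this difference cannot be told apart. No measurement used here checks the age labels, so each age is the one the label gives. At 2 months all 12 libraries are labelled male and held 853 to 3308 reads of Ddx3y. No age is labelled all female, so no exchange of the age sets gives sex labels that match the reads of all ages. The sex labels are thus wrong in either case, and whether the age sets are mistaken too was not tested. 3 libraries stood apart in how short genes compared with long ones. The median over expressed coding genes of the lowest quartile of length minus that of the highest quartile, each gene relative to its own median in that region and age, was 0.54 (log2) in Cb Tpp1-/- replicate 1 of 1 month, 0.70 in Cb Tpp1-/- replicate 1 of 3 months and 0.31 in F/M control replicate 2 of 2 months. It lay between -0.18 and 0.07 in the other 33.

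All 37 members were expressed in every group and passed the filter on low counts at every age. Levels compared between genes are in CPM per kilobase of exon. In control F/M at 1 month the 17 V-ATPase genes had a median of 73.5 CPM per kilobase and the 20 autophagy genes one of 11.3. The highest member was Gabarapl1, an LC3 relative that helps autophagosomes close and fuse, at 258 ± 7.43 (SD, n = 3), and the lowest was Tfeb at 1.42 ± 0.0607. At 3 months the same 2 genes stood at the ends of the order, with 302 ± 8.63 and 1.07 ± 0.0142. The other TFEB family genes were also among the least abundant members, while Sqstm1, Map1lc3a and most pump subunits were among the most abundant. Even Tfeb was counted with at least 79 reads in each library.

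**Figure D1:**
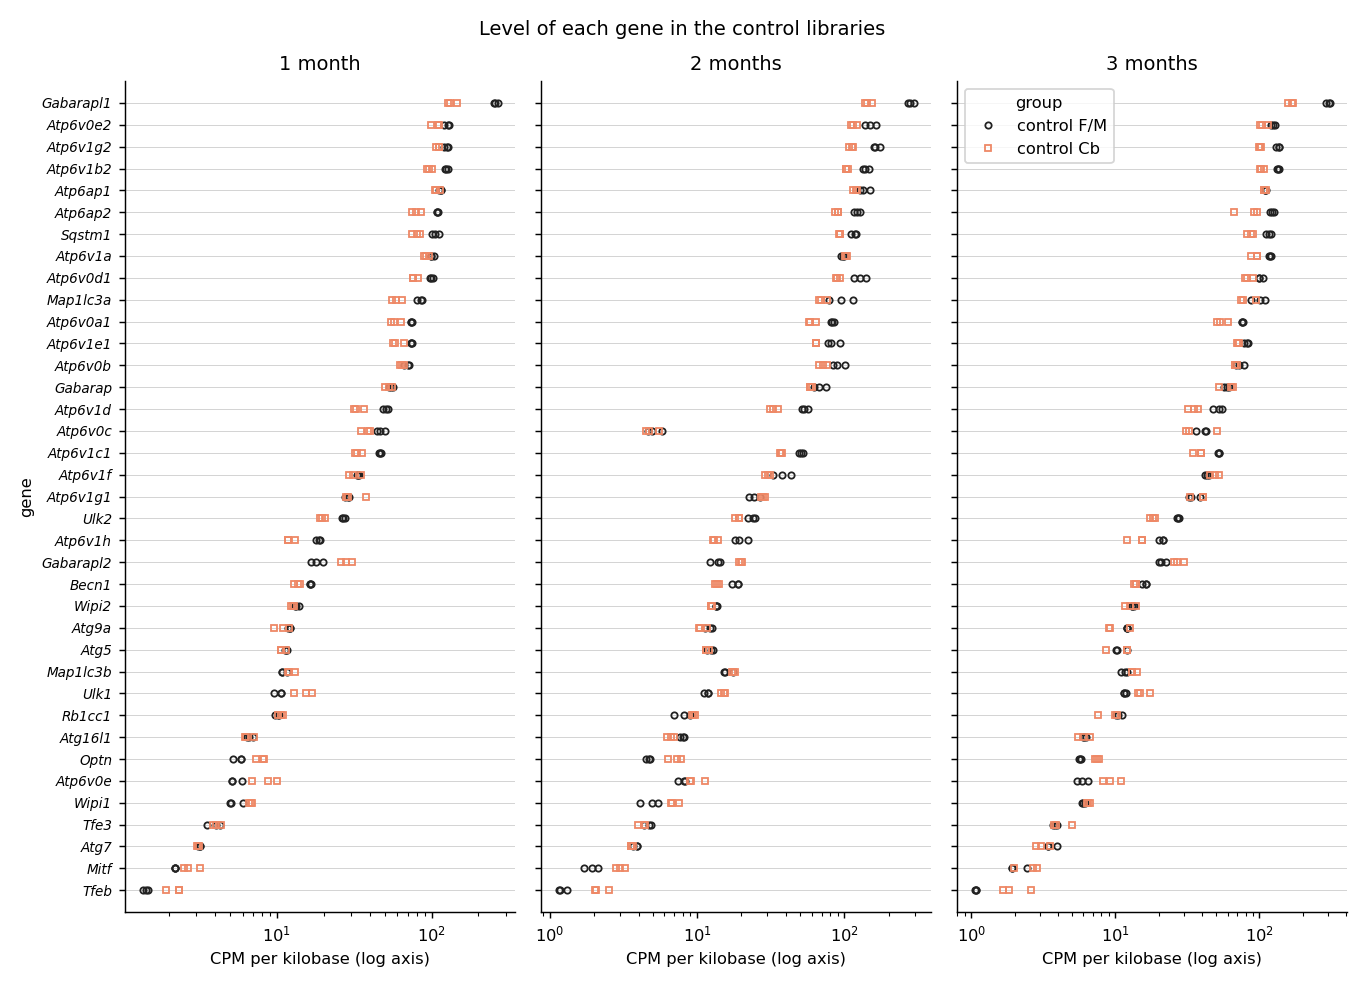
Levels of the 37 genes in control libraries at 1, 2 and 3 months, in CPM per kilobase on a log axis; each open circle is a control F/M library and each open square a control Cb library (3 per group). Gabarapl1 sits at the top and Tfeb at the bottom at every age, and Atp6v0c is far lower at 2 months than at the other ages.

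Where the pump or the machinery has paired genes, the balance of the copies differed between regions. In control F/M at 1 month the level per kilobase of Atp6v0e2, the brain-rich form of subunit e, was 23.3 ± 2.93 times that of Atp6v0e (SD, n = 3), and in Cb 12.9 ± 3.23 times. Atp6v1g2, the neuronal form of the V1 stalk subunit G, stood at 4.37 ± 0.0359 times Atp6v1g1 in F/M and 3.55 ± 0.518 times in Cb. These genes encode parts of the pump, and the same held for the autophagy side. Gabarapl1 was 4.74 ± 0.145 times Gabarap in F/M and 2.55 ± 0.0799 times in Cb, and Gabarapl2 0.332 ± 0.0239 times Gabarap in F/M and 0.534 ± 0.0208 times in Cb. Map1lc3a was 7.59 ± 0.323 times Map1lc3b in F/M and 4.86 ± 0.189 times in Cb. LC3 and GABARAP proteins are the coat of the autophagosome, whereas the ULK kinases start it. The 2 ULK kinase genes gave a ratio of Ulk2 to Ulk1 of 2.62 ± 0.215 in F/M and 1.32 ± 0.195 in Cb. In each of these 6 pairs the 3 libraries of one region did not overlap the 3 of the other at any age. Differences between the regions were common among all genes, however. At the 3 ages 59.4%, 70.1% and 57.8% of all single genes were called between control Cb and control F/M (adjusted p under 0.1 by edgeR). Between genotypes the groups did not overlap in 8 of 36 comparisons of a ratio, 6 in F/M and 2 in Cb. Of the 8, 5 have Gabarap as the denominator and so are not separate cases. No background share was computed for ratios. For the levels of all single genes the share without overlap was 14.8%, 18.3% and 24.1% in F/M and 7.97%, 18.1% and 8.67% in Cb at the 3 ages. Gabarapl2 over Gabarap was 0.315 to 0.359 in control F/M at 1 month and 0.248 to 0.288 in Tpp1-/-, and Gabarapl1 over Gabarap 4.58 to 4.86 and 4.24 to 4.57. Both of these ratios lay apart again at 3 months, at 0.338 to 0.392 against 0.294 to 0.306 and 4.90 to 5.37 against 4.64 to 4.67. In the same libraries Map1lc3a over Map1lc3b was 7.96 to 9.37 in controls and 6.40 to 7.59 in Tpp1-/-, and at 2 months Atp6v1g2 over Atp6v1g1 was 6.55 to 7.09 in controls and 5.78 to 6.25 in Tpp1-/-. The 2 cases in Cb were Gabarapl1 over Gabarap at 3 months (2.60 to 3.03 in controls, 1.77 to 2.59 in Tpp1-/-) and Map1lc3a over Map1lc3b at 2 months (3.86 to 4.22 and 3.62 to 3.81). In the first of these the Tpp1-/- libraries were at 1.77, 2.59 and 2.45, the low value being replicate 1, the library with the short-gene measure of 0.70, and the next nearly reached the lowest control. The short-gene measure also separated the genotypes in F/M at 1 month (-0.07 to -0.02 in controls, 0.03 to 0.07 in Tpp1-/-), and its part in the ratios was not tested. These ratios are given as values, with no test. The ULK pair was added after its values were seen. For pairs whose copies resemble each other, reads that map to both could be split unevenly by the counting.

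Atp6v0c, which encodes the proton-carrying ring of V0, needs a caution of its own. It was counted with 2634 to 3951 reads per library at 1 month and 2147 to 3758 at 3 months, but with 165 to 411 at 2 months. The gene lies at chr17:24163866-24169702 (GRCm38, minus strand). The annotations used at 2 and 3 months, but not the one of 1 month, hold another gene on the same strand over 27.4% of its exonic bases. No processed pseudogene named after it held more than 65 reads over the 12 libraries of an age. Copies under other names were not searched. The strand setting of the counting also differed, being 2 at 2 months and 1 at the other ages. Its level at 2 months is not compared with the other ages, and what lowered it was not tested.

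By edgeR with the filter on low counts, 3 of the 37 genes passed the test between Tpp1-/- and control, all in F/M at 2 months, where 1 rose and 2 fell: Optn, the receptor that links ubiquitin-tagged cargo and damaged mitochondria to LC3, was higher, and the pump subunit genes Atp6v1e1 and Atp6v0e2 were lower. None of the 3 reached a fold change of 1.5. Of all 17229 genes tested, 546 were called, and 127 (0.737% of those tested) were called with a fold change of 1.5 as well. A member was called at a Benjamini-Hochberg adjusted p under 0.1 in edgeR's quasi-likelihood test, taken over all genes tested at that age. The 3 of 37 members called compare with 3.17% of all 17229 genes, with 1 of 37 higher against 2.26% and 2 of 37 lower against 0.905%. The count depended on the method: DESeq2 called 7 members (1 higher, 6 lower), among 3.51% of all genes, and edgeR without the filter called 8 (1 higher, 7 lower), among 3.46%. All but Optn were pump genes in both.

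Optn (chr2:5020642-5064051, minus strand) was measured at 17.8, 16.9 and 18.1 CPM in control F/M at 2 months and at 21.5, 25 and 21 CPM in Tpp1-/-. All 3 Tpp1-/- libraries lay above all 3 controls. The log2 fold change was 0.36 (SE 0.092, adjusted p = 0.0629 by edgeR), a rise of 28.3%. In F/M of 1 month it was 21.9, 21.9 and 19.5 CPM in controls and 21.3, 20.4 and 21.2 in Tpp1-/-, and in F/M of 3 months 21.2, 20.8 and 21.6 against 22, 21 and 24.8. The groups overlapped at both of those ages, and the log2 fold changes were -0.01 and 0.09. The 2 month control libraries were thus the low ones of the F/M series for this gene, although levels across ages come from separate counting runs.

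Atp6v1e1 (chr6:120794305-120822793, minus strand), which encodes a peripheral stalk subunit of V1, was at 320, 383 and 331 CPM in control F/M at 2 months and at 270, 304 and 295 in Tpp1-/-. The groups did not overlap, and the log2 fold change was -0.25 (SE 0.07, adjusted p = 0.0825 by edgeR). Atp6v0e2 (chr6:48537615-48541801, plus strand) was at 327, 392 and 356 CPM in controls and at 294, 316 and 295 in Tpp1-/-. Here too every Tpp1-/- library lay below every control, with a log2 fold change of -0.25 (SE 0.069, adjusted p = 0.0836 by edgeR). In F/M of 1 month both genes lay the other way without passing the test: Atp6v1e1 was at 305, 301 and 300 CPM in controls and 331, 328 and 339 in Tpp1-/-, and Atp6v0e2 at 303, 308 and 284 against 325, 333 and 347. Those groups did not overlap either, with log2 fold changes of 0.14 and 0.17 and an adjusted p of 1 for each by edgeR.

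These 3 calls rested on individual libraries. No member was called when F/M control replicate 2 or 3 or Tpp1-/- replicate 1 or 3 was left out, nor when the fit held only the 6 libraries of the comparison, while 12 were called without control replicate 1 and 9 without Tpp1-/- replicate 2. Those last 2 fits called 12.6% and 5.81% of all genes. The directions of the 3 genes held in each of these fits. Without control replicate 2, the library with the high short-gene measure, the log2 fold changes were 0.33 for Optn, -0.17 for Atp6v1e1 and -0.18 for Atp6v0e2, with adjusted p of 0.127, 0.206 and 0.204 by edgeR. With the replicate number as a block, Optn had an adjusted p of 0.105 by edgeR.

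**Figure D2:**
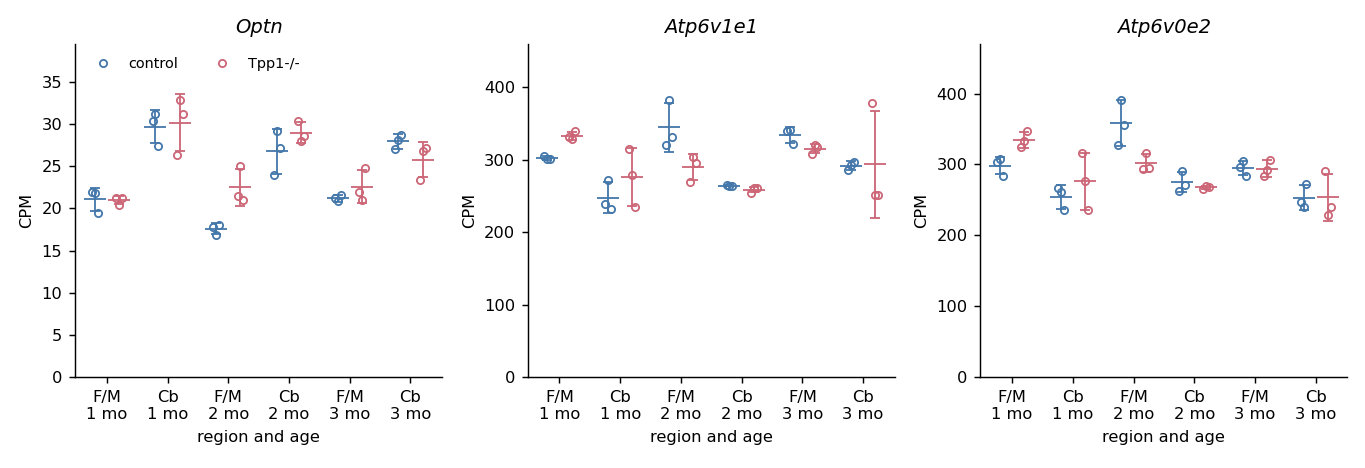
CPM of Optn, Atp6v1e1 and Atp6v0e2 in each of the 36 libraries by region and age; circles are libraries, the horizontal mark is the group mean and the bar the SD (n = 3), with controls in blue and Tpp1-/- in red. In F/M at 2 months the Optn circles of Tpp1-/- lie above those of controls, and those of the 2 pump genes below.

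The pump genes leaned one way as a set in F/M at 2 months. All 17 had negative log2 fold changes, from -0.25 to -0.03 with a median of -0.20, against a median of 0.00 over all genes tested, and 11 of the 17 had an unadjusted p under 0.05, as did 16.9% of all genes. In 7 of the 17 the groups did not overlap, as in 18.3% of all genes. The nearest to the threshold after the 2 called genes were Atp6v1g2 (-0.20, adjusted p = 0.103), Atp6ap2 (-0.20, adjusted p = 0.128), which encodes an accessory protein also known as the prorenin receptor, and Atp6v1d (-0.21, adjusted p = 0.129), all by edgeR. The mean log2 level of the 17 genes was 7.48, 7.64 and 7.56 in controls and 7.35, 7.45 and 7.38 in Tpp1-/-, so the groups did not overlap. Without control replicate 2 the median over the 17 was -0.13, with 16 negative.

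Of the 20 autophagy genes in F/M at 2 months, 5 had positive and 15 negative log2 fold changes, with a median of -0.04, and Optn was the 1 called. At 1 month 11 were positive and 9 negative, and at 3 months 12 and 8, with medians of 0.01 and 0.02. The widest value after Optn at 2 months was that of Wipi1, whose protein binds the growing autophagosome membrane, at 0.21 (adjusted p = 0.274 by edgeR).

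Markers of neurons moved alongside. The mean log2 level of 8 general neuron markers (Rbfox3, Snap25, Syt1, Syp, Stmn2, Tubb3, Map2 and Eno2) in F/M at 2 months was 9.68 to 9.70 in controls and 9.53 to 9.65 in Tpp1-/-, with summed levels of 9027 to 9169 and 8053 to 8990 CPM. On the same scale, the 8 astrocyte markers went from 7.94 to 8.01 in controls to 8.12 to 8.41 in Tpp1-/-, the 12 of midbrain and thalamus from 3.67 to 3.74 to 4.07 to 4.13, and the 8 of forebrain neurons from 6.14 to 6.19 to 5.85 to 5.98. The 12 choroid plexus markers had the largest shift of these lists, from 2.19 to 3.13 in controls to 3.08 to 3.73 in Tpp1-/-, with 12 of 12 positive (median log2 fold change 0.77) and 7 called higher. None of the markers of these lists was at 0 in these libraries. In bulk tissue, fewer cells of a type and less RNA per cell cannot be told apart, and the part of these markers in the lean of the pump genes was not tested.

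At 1 month the lean in F/M had the opposite sign. 15 of the 17 pump genes had positive log2 fold changes, with a median of 0.11, and in 12 of them the 3 Tpp1-/- libraries did not overlap the 3 controls, against 14.8% of all genes. The mean log2 level was 7.58, 7.58 and 7.56 in controls and 7.65, 7.69 and 7.69 in Tpp1-/-. No member was called, and 0 of 37 had an unadjusted p under 0.05, against 1.89% of all genes. The neuron markers again moved with the pump genes, from 9.63 to 9.65 in controls to 9.71 to 9.74 in Tpp1-/-. So did 14 microglia markers, from 4.55 to 4.63 in controls to 4.73 to 4.81 in Tpp1-/-, and the short-gene measure, from -0.07 to -0.02 in controls to 0.03 to 0.07 in Tpp1-/-. Their part was not tested here either. The change in effect from 1 to 2 months was negative for all 17 pump genes, with a median of -0.27 (-0.04 for Atp6v0c, whose counting differed at 2 months as described above), and 9 of the 37 members had an unadjusted p under 0.05 (8.81% of all genes), but none was called by edgeR (smallest adjusted p = 0.327, background 0.0218% of 18322 genes) and 1, Atp6v1g2, by DESeq2, which called 0.126% of all genes. That difference between ages was added after the data were seen.

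**Figure D3:**
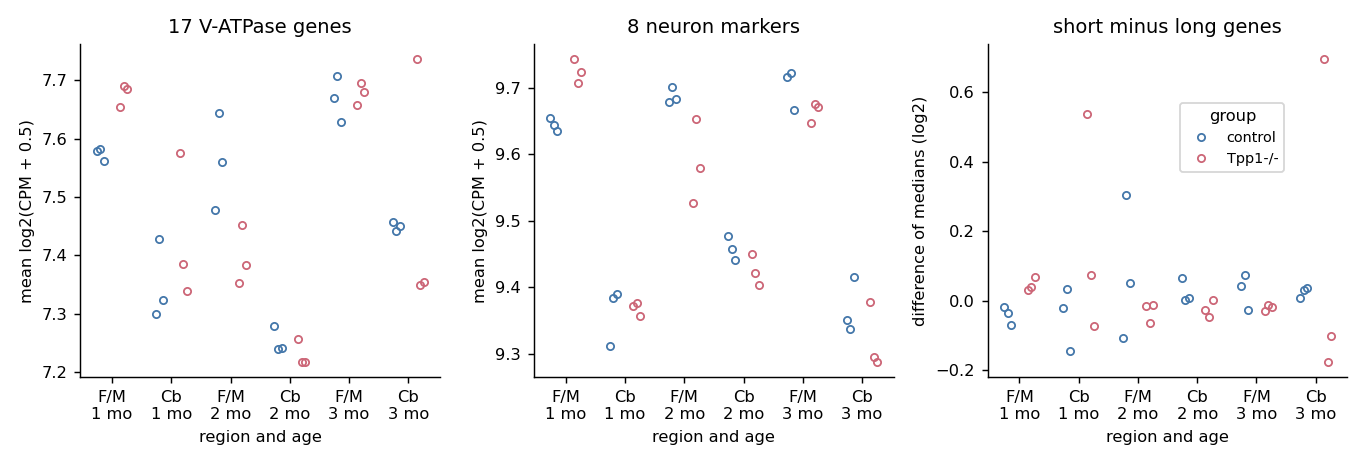
Mean log2(CPM + 0.5) in each library for the 17 V-ATPase genes (left) and for 8 neuron markers (middle), and the log2 difference between short and long genes (right), by region and age; each circle is a library, controls blue and Tpp1-/- red. In F/M both gene sets are higher in Tpp1-/- at 1 month and lower at 2 months, and the 3 libraries with a short-gene measure of 0.31 or more have the highest pump levels of their groups.

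With the filter on low counts, no member was called in the other 5 comparisons of Tpp1-/- with control by edgeR, DESeq2 or limma-voom over all 12 libraries of an age. In F/M, 0 of 37 members were called at 1 month (background 0.0112%) and 0 at 3 months (0.488%), with 0 and 0 members at an unadjusted p under 0.05 (1.89% and 5.94% of all genes). In Cb, 0 were called at 1 month (0.0112%), 0 at 2 months (3.08%) and 0 at 3 months (0.952%), with 4, 1 and 1 members at an unadjusted p under 0.05 (7.66%, 9.67% and 6.49% of all genes). The smallest adjusted p of any member was 0.63 in Cb at 1 month, 0.336 in Cb at 2 months, 0.713 in Cb at 3 months, 1 in F/M at 1 month and 0.9 in F/M at 3 months. With only the 6 libraries of F/M at 3 months in the fit, 6 members were called (Atp6ap1, Atp6v0e, Gabarap, Map1lc3a, Sqstm1 and Wipi1), as were 11.1% of all genes. In those libraries the mean log2 level of microglia markers was 4.70 to 4.83 in controls and 5.26 to 5.39 in Tpp1-/-. Astrocyte markers were at 8.16 to 8.24 and 8.33 to 8.43, and oligodendrocyte markers at 8.31 to 8.32 and 7.98 to 8.14. Midbrain and thalamus markers were at 3.75 to 3.97 and 3.47 to 3.65, while general neuron markers overlapped. The part of these lists was not tested. The missing calls are limits on size rather than proof of no change. The 95% interval of the log2 fold change lay within 1.5-fold either way for 37 of 37 members in F/M and 35 in the cerebellum at 1 month. At 2 months it did so for 37 in both regions, and at 3 months for 35 in F/M and 34 in Cb.

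By role, the TFEB family genes stayed below the threshold throughout. Tfeb, named here after its values were seen, had log2 fold changes of -0.28 and 0.31 in F/M and Cb at 1 month, and the difference between the regions, 0.59, had an unadjusted p of 0.00801 and an adjusted p of 1 by edgeR. In Cb at 1 month the highest value among the members belonged to Map1lc3a, which encodes the main LC3 protein of neurons. It was at 65.8, 75.7 and 69.4 CPM in controls and 119, 95.8 and 69.4 in Tpp1-/-, and the groups overlapped (log2 fold change 0.43, adjusted p = 0.63 by edgeR). Without the filter it was called higher, as the 1 member in a fit that called 0.582% of all genes. The highest value was that of replicate 1, the library with the high short-gene measure. Sqstm1, the p62 receptor that builds up when autophagy stalls, was at 274, 291 and 304 CPM in control Cb at 3 months and at 422, 314 and 303 in Tpp1-/-. Those groups overlapped as well, with a log2 fold change of 0.26 and an adjusted p of 0.713 by edgeR. Replicate 1 was again the high library. At 3 months in F/M Sqstm1 was at 390, 404 and 374 CPM in controls and at 445, 442 and 442 in Tpp1-/-. The groups did not overlap there, but the log2 fold change of 0.19 had an adjusted p of 0.99 by edgeR.

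In Cb, 2 libraries stood highest for the pump genes. The mean log2 level of the 17 pump genes was 7.58, 7.39 and 7.34 in Tpp1-/- at 1 month and 7.74, 7.35 and 7.36 at 3 months, and in both cases the first value belongs to the library with the high short-gene measure. Without Tpp1-/- replicate 1 the median log2 fold change of the 17 went from 0.10 to -0.03 at 1 month and from 0.02 to -0.09 at 3 months. At 3 months 2 members were then called lower, in a fit that called 2.66% of all genes: Atp6v1f, a V1 rotor subunit, and Map1lc3a. At 1 month, leaving out replicate 3 instead gave 5 called members, of which Atp6v0c, Atp6v1e1, Atp6v1f and Map1lc3a were higher and Rb1cc1 lower. That fit called 8% of all genes. The part of the short-gene measure in these values was not tested.

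**Figure D4:**
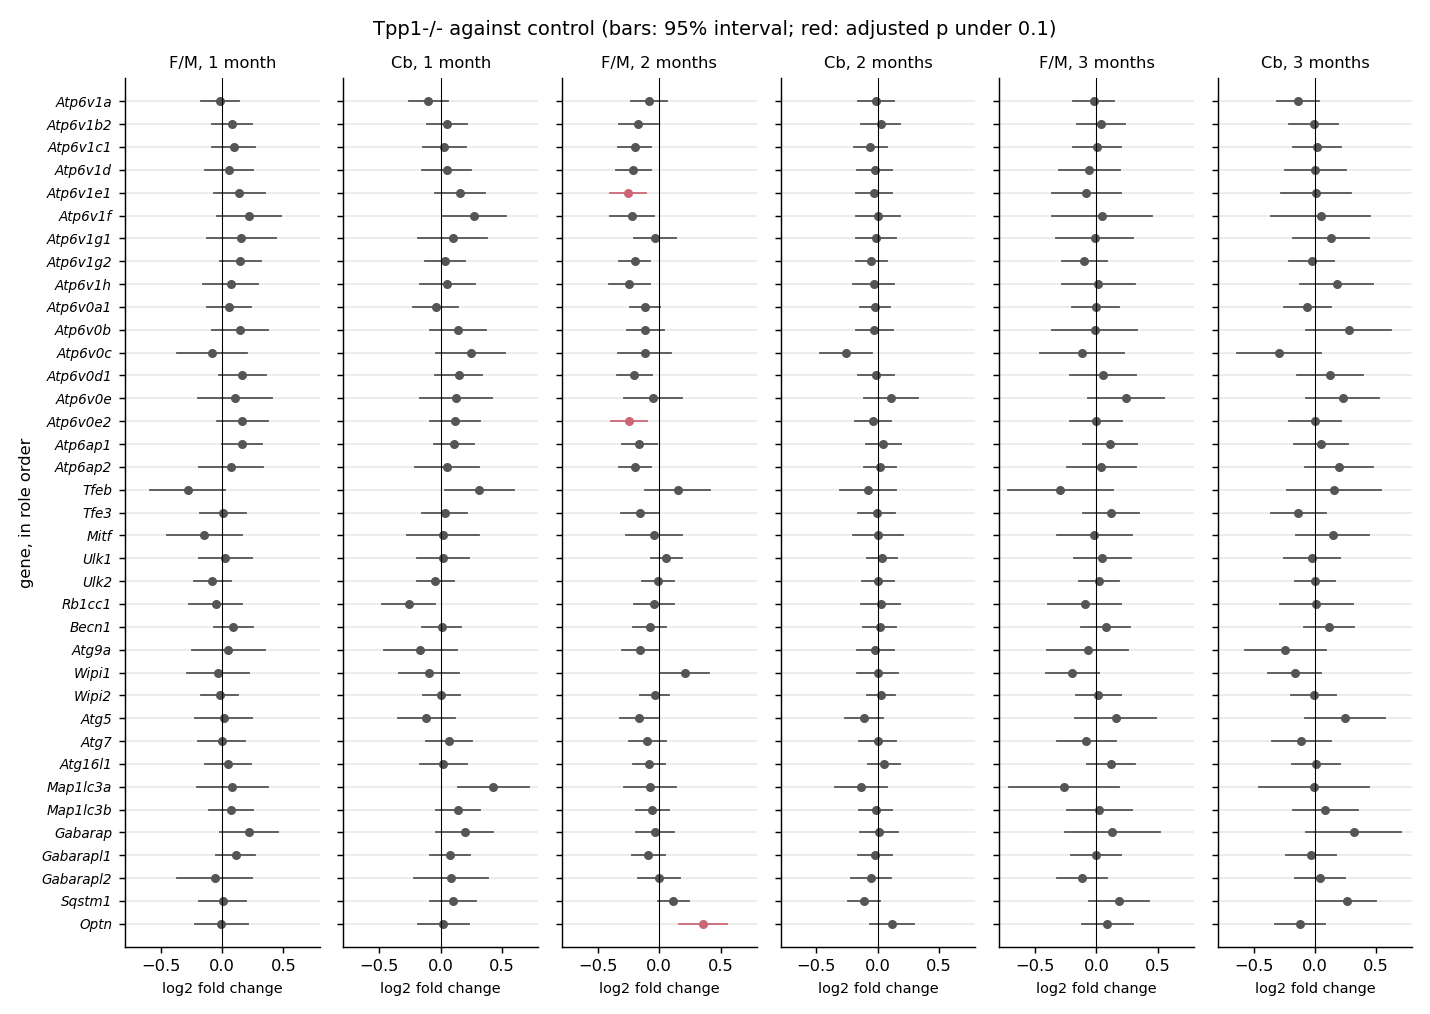
Log2 fold change of Tpp1-/- over control for each of the 37 genes in the 6 comparisons; points are estimates, bars are 95% intervals, and red marks an adjusted p under 0.1. In F/M at 2 months all 17 V-ATPase genes lie left of 0, 2 of them in red, and Optn lies to the right in red; no other panel has a red point.

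By edgeR with the filter on low counts, no member's difference between Tpp1-/- and control was shown to vary with region or age. The test of the difference between Cb and F/M called 0 of 37 members at 1 month (background 0%), 0 at 2 months (2.97%) and 0 at 3 months (0.00581%) by edgeR, and 0 by DESeq2 and limma-voom. At an unadjusted p under 0.05 there were 1, 5 and 0 members (1.94%, 11.5% and 3.51% of all genes). At 2 months the difference was 0.22 for Atp6v1e1 (95% interval 0.02 to 0.43), 0.21 for Atp6v0e2 (0.00 to 0.41) and -0.25 for Optn (-0.51 to 0.02) on the log2 scale, with adjusted p of 0.382, 0.423 and 0.487 by edgeR. In Cb at 2 months these 3 genes had log2 fold changes of -0.03, -0.04 and 0.11. From 2 to 3 months the effect changed in 0 members in F/M (background 0.393%) and in 0 in Cb (1.44%), and from 1 to 3 months in 0 in F/M (0.153%) and 0 in Cb (0.458%). In those 4 tests 3, 2, 1 and 2 members had an unadjusted p under 0.05 (8.12%, 6.41%, 5.41% and 7.91% of all genes), and DESeq2 called none either. From 1 to 2 months in Cb, also added after the data were seen, 0 members were called (background 1.28%), with 2 at an unadjusted p under 0.05 (8.85% of all genes). Without the filter, Atp6v0c and Map1lc3a were called in Cb from 1 to 2 months (1.43% of all genes) and Atp6v0c from 1 to 3 months (0.751%). The first call of Atp6v0c rests on its low 2 month counts, with the caution given above.

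Few genes of the wider pathway passed the test either. Of 81 other genes of the pump, of autophagy, of its cargo receptors and of mTORC1 and TFEB control, 75, 76 and 75 passed the filter at the 3 ages. At 2 months in F/M 2 of 76 fell and 0 rose, against a background there of 2.26% higher and 0.905% lower: Wdr45, which encodes a WIPI family protein, with a log2 fold change of -0.36 (SE 0.1, adjusted p = 0.0949 by edgeR), and Vmp1, which encodes a membrane protein of early autophagosomes, with -0.23 (SE 0.06, adjusted p = 0.0668 by edgeR). Neither reached a fold change of 1.5, and both were named after their values were seen. Of the other V-ATPase subunits and assembly factors in F/M, 4 were positive and 9 negative at 1 month (median -0.02), and 4 positive and 10 negative at 2 months (median -0.02). In the other 5 comparisons 0 genes of the wider pathway were called by edgeR, and at an unadjusted p under 0.05 there were 1 and 2 genes in F/M (1 and 3 months) and 6, 2 and 2 in Cb (1, 2 and 3 months), to be read against the shares of all genes given for these comparisons.

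The regions themselves differed far more than the genotypes. Comparing control Cb with control F/M, 23 of 37 members were called at 1 month (7 higher in Cb, 16 lower), 31 at 2 months (9 and 22) and 19 at 3 months (5 and 14). Over all genes 59.4%, 70.1% and 57.8% were called, and genes higher in Cb made up 29.7%, 34.7% and 29.6% and those lower 29.7%, 35.4% and 28.2% of all tested. The share of members called lay near that of all genes at 1 month and differed from it by more at the later ages. With a fold change of at least 1.5 as well, 6 of 37 members passed at 1 month, 5 at 2 months and 3 at 3 months, against 36.9%, 39.3% and 37.7% of all genes. Control samples of equal number may come from one mouse, which the labels do not state.

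The pump genes accounted for much of the lower side. Of the 17, 11, 13 and 10 were lower in Cb at the 3 ages and 1, 2 and 1 higher, with medians of -0.29, -0.38 and -0.29 on the log2 scale. Of the 20 autophagy genes, 5, 9 and 4 were lower and 6, 7 and 4 higher, with medians of -0.03, -0.11 and 0.00. The medians over all genes were 0.02, -0.01 and 0.04. The mean log2 level of the neuron markers in controls at 1 month was 9.31 to 9.39 in Cb and 9.63 to 9.65 in F/M, but the list was divided, with 4 of 8 called lower in Cb and 2 called higher. Of the other lists, all 14 microglia markers were called lower in Cb at every age (median log2 difference -1.28, -1.59 and -1.33), as were all 8 of forebrain neurons, and 3, 6 and 2 of the 8 oligodendrocyte markers were called lower and 0 higher. Astrocyte and choroid plexus markers were mostly higher in Cb, with 6 of 8 and 10 of 12 positive at 1 month. The part of these lists was not tested.

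18 of the 37 members were called in one direction at all 3 ages, 13 lower in Cb and 5 higher. Of 16713 genes tested at all ages, 45% were called in this way, 23.3% lower and 21.7% higher. Gabarapl1 had the largest of the smallest differences over the 3 ages. In control F/M at 1 month it was at 508, 537 and 516 CPM and in control Cb at 263, 292 and 256. The regions were well separated, with log2 differences of -0.94 (SE 0.076), -0.96 (SE 0.065) and -0.86 (SE 0.095) at the 3 ages and adjusted p of 4.41e-08, 1.9e-10 and 3.54e-06 by edgeR. It remained past the 1.5-fold minimum with any 1 of the control replicates left out at any age. Exons of an antisense gene cover 28.3% of its exonic bases, and counting used strand.

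Tfeb was the opposite case. It was at 8.38, 8.11 and 7.69 CPM in control F/M at 1 month and at 13.3, 10.9 and 13.3 in control Cb, so the regions did not overlap. The log2 difference was 0.63 (SE 0.14), 0.86 (SE 0.12) and 0.93 (SE 0.19) at 1, 2 and 3 months, with adjusted p of 0.0011, 3.18e-06 and 0.000885 by edgeR. The least abundant member was thus relatively richer in the region where the most abundant one was poorer. Gabarapl2, another GABARAP family gene, was at 38.7, 45.8 and 41.8 CPM in F/M and at 65.1, 71.4 and 60 in Cb at 1 month, with log2 differences of 0.63, 0.56 and 0.38. Optn was at 21.9, 21.9 and 19.5 CPM in F/M and 30.3, 31.2 and 27.4 in Cb, with log2 differences of 0.49, 0.61 and 0.40. For both genes the regions did not overlap at any age.

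The other 4 of the 8 members with the largest of these smallest differences were pump genes, all lower in Cb. Atp6v1d, which encodes the rotor shaft of V1, was at 239, 232 and 222 CPM in F/M and 149, 167 and 145 in Cb at 1 month, with log2 differences of -0.59, -0.70 and -0.57 at the 3 ages. Atp6v1h, whose subunit regulates the joining of V1 to V0, was at 184, 175 and 182 CPM in F/M and 115, 127 and 115 in Cb, with differences of -0.60, -0.58 and -0.56. Both showed no overlap between regions at any age. Atp6v1c1 was at 264, 255 and 261 CPM in F/M and 178, 200 and 183 in Cb, with differences of -0.47, -0.46 and -0.46, and Atp6ap2 at 284, 282 and 289 against 195, 224 and 206, with differences of -0.45, -0.45 and -0.52. Adjusted p ranged from 3.48e-08 to 0.00589 over these 4 genes and 3 ages by edgeR.

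Paired genes split between the regions. Ulk1 was higher in Cb and Ulk2 lower at all 3 ages, and Atp6v0e was higher while Atp6v0e2 was lower. Their ratios moved accordingly: Ulk2 over Ulk1 was 2.04 ± 0.0548 in F/M against 1.254 ± 0.082 in Cb at 2 months, and 2.34 ± 0.069 against 1.18 ± 0.161 at 3 months (SD, n = 3). Atp6v0e2 over Atp6v0e was 18.9 ± 0.907 against 12 ± 1.97 at 2 months, and 21.1 ± 2.33 against 11.3 ± 0.911 at 3 months. Sqstm1 was lower in Cb at each age while Optn, the other cargo receptor of the group, was higher. At no age called were 4 members (Atg5, Atg7, Map1lc3b and Tfe3), against 17.5% of all genes.

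**Figure D5:**
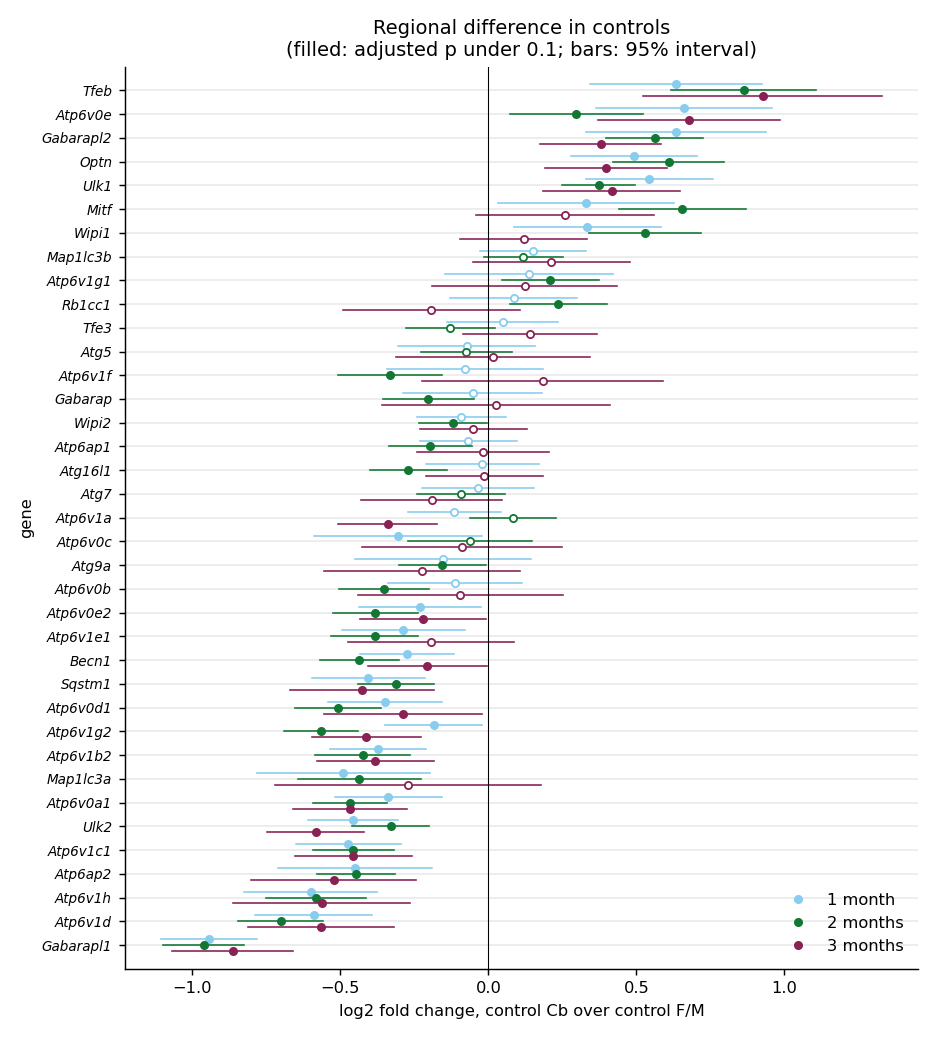
Log2 difference between control Cb and control F/M for the 37 genes at 1, 2 and 3 months; filled points have an adjusted p under 0.1 and bars are 95% intervals. Gabarapl1 lies farthest left at all 3 ages and Tfeb near or at the far right, with most pump genes left of 0.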

How the data were processed

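The authors deposited raw counts per gene for each of the 36 libraries, with no pooling, made with STAR 2.5.2b and featureCounts from single-end reads of stranded mRNA libraries on GRCm38. The file headers name featureCounts 1.6.3 at 1 month and 1.6.2 at 2 and 3 months, with the strand setting 1, 2 and 1 and GENCODE annotations M21, M16 and M18, so ages were fitted separately except in tests of age differences. They also name fractional counting of multi-mapping reads, although every deposited value is whole. The genotype, region and replicate of each library were taken from the labels. After edgeR's filterByExpr (17916, 17229 and 17224 genes left) counts were scaled by TMM and fitted with edgeR 4.0.16 (quasi-likelihood, R 4.3.3) over all 12 libraries of an age, and over all 36 for age differences. A call needs an adjusted p under 0.1 over all genes, and a DEG also a fold change of 1.5. DESeq2 1.42.0, limma 3.58.1 (voom), other scalings and filters, and leaving out each library were alternatives.

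Members were taken by gene symbol, and they and the lists were chosen with earlier results of these data known. Named genes are Tpp1, the members called in a genotype comparison or in its difference between regions, the 8 whose smallest regional difference over the ages was largest among those called in 1 direction at all ages, the highest and lowest members, and the pairs of related genes. Others were chosen after their values were seen. Replicates are biological triplicates in the study's methods, and p-values measure only the spread between these samples. Levels between genes are CPM divided by exonic length. No main fit paired same-numbered libraries, and the replicate block was an alternative only. The p-values between regions and of region by genotype differences thus take no account of samples that may share a mouse. Only for controls across regions at 1 month did all 3 correlations of deviations exceed 0.1 (0.124 to 0.198). For Tpp1-/- across regions at 1 month they were 0.0947 to 0.160.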

Additional observations from a re-analysis of the deposited data

Results flagged for a closer look

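By edgeR with the filter on low counts, no member's Tpp1-/- effect differed between regions or ages past the threshold, and groups of 3 were not tested for an outlying sample. For the targeted gene the effect differed between ages. The fall of Tpp1 in Tpp1-/- was smaller at 3 months than at 2 months, by 0.79 on the log2 scale in F/M (adjusted p = 0.0648 by edgeR) and by 0.75 in Cb (adjusted p = 0.0223 by edgeR). In Cb it was also smaller at 3 months than at 1 month, by 0.73 (adjusted p = 0.0721 by edgeR). Mean control CPM in F/M were 63.6, 92.9 and 42.6 at 1, 2 and 3 months, and those of Tpp1-/- 16.8, 21.3 and 16.8. Ages were counted in separate runs, so age and counting cannot be told apart.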

How the results depend on the processing

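Of 561 alternative values of single genes, 538 kept their side of the threshold, 22 lost the call and 1 gained it. Among values called in the main or the alternative fit, 0 changed sign. Changes of sign in values called in neither fit were not counted apart and are among the 538. Of 173 alternative counts, 145 stayed within 1.5 times. In F/M at 2 months, 3 members were called (3.17% of all genes), 0 with the fold minimum (0.737%), 8 without the filter (3.46%), 7 by DESeq2 (3.51%), 0 with only its 6 libraries (0.574%) and 0 to 12 with 1 library left out (0.224% to 12.6%). With the replicate number as a block 4 were called (Atp6v0e2, Atp6v1e1, Atp6v1g2 and Atp6v1h; 3.52%), where the numbers were not taken to pair the samples. All 17 or 16 of the pump genes were negative in every alternative, with medians from -0.26 to -0.13. In F/M at 3 months 6 were called with only its 6 libraries (11.1%). In Cb at 1 month 1 (Map1lc3a) was called without the filter (0.582%) and 0 to 5 with 1 library left out (0.00545% to 8%), and in Cb at 3 months 0 to 2 (0.626% to 2.66%). Age differences gave 2 (Atp6v0c and Map1lc3a) in Cb from 1 to 2 months (1.43%) and 1 (Atp6v0c) from 1 to 3 months (0.751%) without the filter, and 1 (Atp6v1g2) in F/M from 1 to 2 months by DESeq2 (0.126%). For the regions, 6, 5 and 3 DEGs became 23, 31 and 19 without the fold minimum (59.4%, 70.1% and 57.8% of all genes), and 3 to 7, 3 to 9 and 3 to 7 with 1 control number left out (34% to 39.6%). At 3 months RLE scaling and DESeq2 each gave 6 (37.6% and 36.9%). The replicate block at 1 month gave 6 again, the same genes. Except where a fit held fewer samples or genes, the cause was not tested.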

Other observations

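Among the enzymes that work inside the acidified lysosome, some genes passed the test in Cb by edgeR, where no pump or autophagy member did. In Cb at 3 months Ctsd, which encodes the protease cathepsin D, was at 135, 145 and 151 CPM in controls and at 388, 219 and 241 in Tpp1-/- (log2 fold change 0.98, adjusted p = 0.0103 by edgeR). The highest value belongs to replicate 1, the library with a short-gene measure of 0.70. Without it the log2 fold change was 0.68 (adjusted p = 0.000113 by edgeR). With only the 6 libraries of the comparison in the fit, the adjusted p was 0.241. Gaa, the lysosomal alpha-glucosidase gene, was at 192 to 201 CPM in control Cb at 2 months and at 150 to 168 in Tpp1-/- (log2 fold change -0.28, adjusted p = 0.037 by edgeR), and the call was lost without any 1 of the 3 control libraries or Tpp1-/- replicate 2 (log2 fold change -0.30 to -0.23, adjusted p 0.109 to 0.228). In the same libraries the 8 oligodendrocyte markers had a mean log2 level of 8.16 to 8.21 in controls and 7.81 to 8.03 in Tpp1-/-, with 8 of 8 negative and 2 called lower. Other lists shifted more there. The 12 midbrain and thalamus markers were at 2.85 to 3.17 in controls and 1.92 to 1.94 in Tpp1-/-, with up to 3 of them at 0 in a Tpp1-/- library. The 12 choroid plexus markers were at 4.12 to 4.30 in controls and 4.77 to 4.86 in Tpp1-/-. The part of these lists in the value of Gaa was not tested. Ctsd and Gaa and their alternatives were chosen after their values were seen. Microglia markers were higher in the same Cb libraries of 3 months, with a mean log2 level of 3.28 to 3.54 in controls and 4.41 to 4.99 in Tpp1-/-, the highest again in replicate 1, and their part in the hydrolase values was not tested.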
